A study of Mus musculus with 36 samples.

Results

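Axon guidance ligands and receptors are the 65 genes described here, of 26709 genes in the RNA table and of 16209 that passed a filter on low values (a mean of at least 10 normalised counts over the 18 RNA samples). They were chosen by symbol alone, as semaphorins, plexins, neuropilins, Eph receptors, ephrins, Slits, Robos, netrins and netrin-Gs, Unc5 receptors and Dcc. The symbols matched 73 genes. The 8 below the filter were Epha1 (mean 8.16), Plxnb3 (5.82), Robo3 (5.55), Sema3g (2.86), Robo4 (2.18), the antisense genes Plxna4os2 (0.364) and Plxna4os1 (0.137), and Ntn5 (0.354). The member nearest above it was Efna1, with a mean of 10.2. By symbol there were 35 ligands and 30 receptors. The row that the deposited files name Ntn3 carries the identifier ENSMUSG00000036473, which GENCODE M21 gives to Tbc1d24, a gene overlapping Ntn3 on the same strand, so it is no netrin measurement. The rule on symbols keeps it in every count of members and ligands, where it is among those lower with BDNF at 6 and 10 h, and its 2 peaks, neither of them called, are among the members' peaks.

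Guidance molecules steer growing axons and dendrites. Class 3 semaphorins are secreted and act through neuropilins and plexins, whereas Sema3e binds Plexin-D1 directly. Other semaphorins are anchored in the membrane. Ephrins and Eph receptors are both on cell surfaces and signal on contact, Slits are secreted ligands of Robo receptors, and netrin-1 attracts axons through Dcc or repels them through Unc5 receptors. In postmitotic cortical neurons several of these genes remain in use at synapses and dendritic spines.

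Primary cortical neurons came from CD-1 mouse embryos at embryonic day 15, with tissue of all embryos pooled before plating, and were kept for 7 days in vitro. A silencing step of 2 h came before stimulation in every culture, using AP-5 (100 µM), an NMDA receptor blocker, together with TTX (1 µM), a sodium channel blocker. BDNF, the neurotrophin that acts through the TrkB receptor, was then given at 10 ng/ml, or KCl, which depolarises the membrane, at 55 mM, for 1, 6 or 10 h. Controls stayed in AP-5 and TTX for 3, 8 or 12 h in all, and are named here by the matching stimulation time. RNA-seq (oligo-dT) and ATAC-seq, in which a transposase marks accessible DNA, each covered 9 groups of 2 samples, described by the study as biological replicates. The sources used here do not say whether the 2 samples came from separate dissections.

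RNA libraries held 8.51 to 36.7 M reads (M for mega) in genes, the 1 h control library A being the deepest, and ATAC libraries held 1.24 to 6.24 M reads in peaks. Fos, an immediate-early gene, rose at 1 h with BDNF by 5.63 and with KCl by 7.30 on the log2 scale. The summed counts of 6 neuron markers were 51507 to 57342 in controls and 48819 to 60480 in stimulated samples. Other markers moved with the groups. Interneuron markers summed to 12018 to 14459 in controls and 15268 to 19852 in stimulated samples, astrocyte markers went from 8881 to 11855 in controls to 7062 to 8357 with KCl at 6 and 10 h, and progenitor markers went from 6673 to 9298 in controls to 5368 to 6264 at 6 and 10 h of either stimulus. Of 6 interneuron markers 3 or 4 were called higher in each of the 6 comparisons, and 2 were called lower with KCl at 6 h and at 10 h. With BDNF astrocyte markers summed to 8723 to 9079 at 6 h and 8949 to 9125.5 at 10 h. Of the tested astrocyte markers 4 of 5 were called lower with KCl at 6 h and at 10 h. With BDNF 4 of 5 were called lower at 6 h and 2 of 5 at 10 h. Of 6 progenitor markers 4 were called lower with BDNF at 6 h and at 10 h. With KCl 1 of them was called higher and 3 lower at 6 h, and 0 higher and 2 lower at 10 h. Oligodendrocyte lineage markers summed to 5964 to 6453 in controls and to 4420 to 4948 with KCl at 1 h. Their sums exceeded the controls with BDNF at 1 h (6493 to 6803) and with KCl at 6 h (6985 to 7400) and 10 h (6741 to 7468). With BDNF at 6 h they were 5661 to 5791. Of 7 such markers 0 were called higher and 3 lower with KCl at 1 h, and 2 higher and 4 lower at 6 h. Control sums were 141 to 211 for microglia, 3065 to 3928 for mural cells or fibroblasts and 276 to 1233 for endothelium, where the defining gene Cldn5 was near 0 (0.163). In bulk samples fewer cells of a type and less RNA per cell cannot be told apart, and the part of these shifts in the results was not tested.

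RNA values are normalised read counts, that is, reads per gene divided by a size factor of the sample. Differences are on the log2(value + 1) scale with their standard error (SE), which understates changes of weak genes. Each stimulated group (n = 2) was set against the 6 controls of all times in 1 limma model of all 16209 genes, and a gene was called at a Benjamini-Hochberg adjusted p below 0.1, two-sided. All adjusted p-values of RNA are from limma. The 6 comparisons with controls share those controls. Where 3 pairs of values follow each other, they are libraries A and B at 1, 6 and 10 h.

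In controls the most abundant members per kb of exon were ephrins and plexins. Efnb3 stood at 1313 ± 114 normalised counts per kb (SD, n = 6), ahead of Efnb2 at 565 ± 26.7, Plxna1 at 449 ± 19.4 and Plxna3 at 384 ± 29.4. The next levels, Plxnb2 at 363 ± 52.4 and Plxna2 at 360 ± 25.0, lay within 1 SD of Plxna3. At the other end were Epha2 at 3.24 ± 1.49, Sema3d at 4.83 ± 0.899, Sema3b at 5.70 ± 1.27, Efna1 at 5.97 ± 0.755, Epha6 at 6.95 ± 1.17 and Sema3e at 9.64 ± 0.983, where each neighbour in the order from Sema3d to Epha6 differed from the next by less than the larger SD of the pair.

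After BDNF more members fell than rose. At 1 h 11 members rose and 17 fell (16.9% and 26.2% of 65), against 21.3% of all tested genes called higher and 19.0% called lower. These 28 calls were 17 without BDNF library A of 1 h (10 higher, 7 lower) and 18 with the 1 h controls alone. At 6 h 12 rose and 33 fell (18.5% and 50.8%), against 22.1% and 21.1% of all genes. At 10 h 9 rose and 27 fell, against 21.1% and 19.5% of all genes. After KCl more members rose than fell at 1 h, and the counts were closer to even at 6 and 10 h. At 1 h 21 rose and 13 fell against 26.5% and 28.2% of all genes, at 6 h 24 rose and 19 fell against 33.4% and 33.1%, and at 10 h 21 rose and 19 fell against 29.0% and 28.2%. The median difference over the 65 members was -0.06, -0.20 and -0.18 with BDNF at 1, 6 and 10 h, and 0.08, -0.01 and 0.10 with KCl, whereas the median of all tested genes lay between -0.007 and 0.008 in the 6 comparisons.

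**Figure D1:**
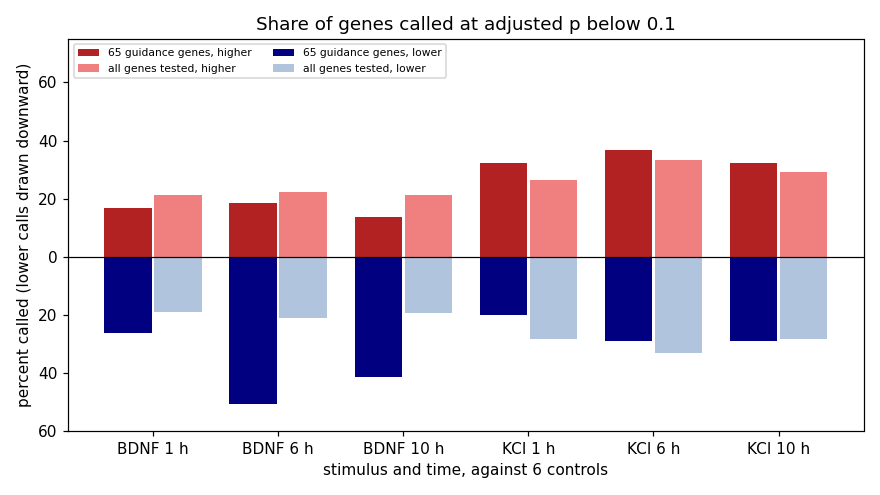
Share of genes called higher or lower than controls (percent, y axis, lower calls drawn downward) for the 65 members and for all 16209 tested genes in the 6 comparisons. The bar of members called lower with BDNF at 6 h reaches 50.8%, against 21.1% for all genes.

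Ligands and receptors differed most in their medians at 6 h of BDNF. At 6 h 7 of 35 ligands rose and 13 fell, while 5 of 30 receptors rose and 20 fell, with median differences of -0.07 and -0.35. At 1 h of BDNF 7 ligands rose and 7 fell, and 4 receptors rose and 10 fell (medians -0.02 and -0.11). At 10 h 6 ligands rose and 13 fell, and 3 receptors rose and 14 fell (medians -0.14 and -0.22). With KCl at 6 h 15 ligands rose and 7 fell, and 9 receptors rose and 12 fell. Of all tested genes 22.1% rose and 21.1% fell with BDNF at 6 h, and 33.4% and 33.1% with KCl. The shares of all genes given above for each comparison also stand beside the counts by class that follow. No test between ligands and receptors was made.

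**Figure D2:**
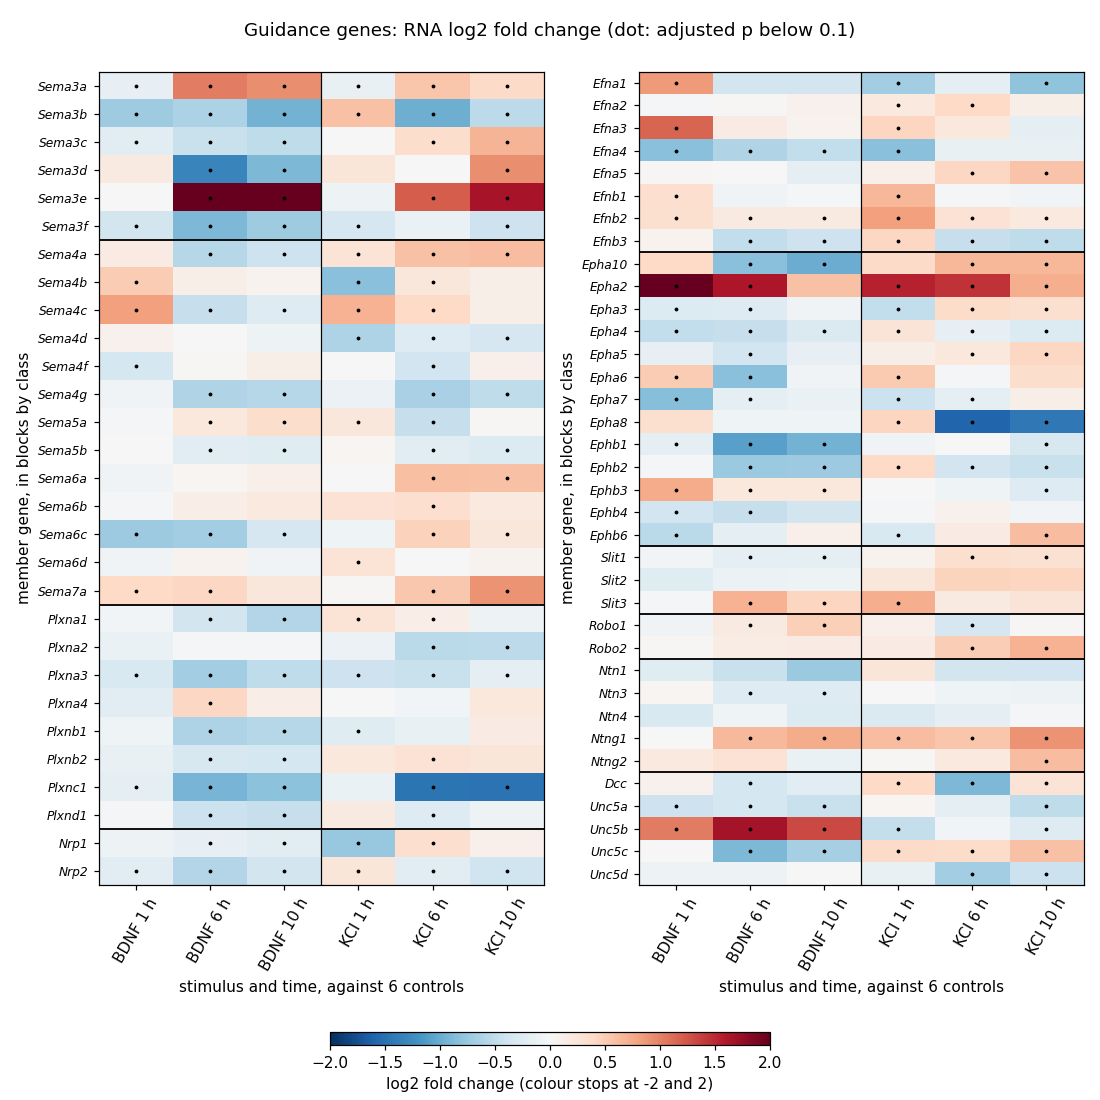
Log2 difference from controls for the 65 members (rows, grouped by family) in the 6 comparisons (columns), colour stopping at -2 and 2 and dots marking calls. Sema3e, Epha2 and Unc5b hold the highest BDNF values, and lower values fill most plexin and Eph rows with BDNF at 6 h.

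Class 3 semaphorins are secreted guidance ligands, and Sema3e among them had the largest rise of any member with BDNF at 6 h. Of the 6, Sema3e and Sema3a rose with BDNF at 6 and 10 h, and the other 4 (Sema3b, Sema3c, Sema3d and Sema3f) fell at both times. With KCl 3 rose and 1 fell at 6 h, and 4 rose and 2 fell at 10 h.

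Sema3e (chr5:14025276-14256689, plus strand, mm10) is a ligand of Plexin-D1. Its normalised counts were 76.4 to 102 in controls (median 89.5). BDNF took them to 98.8 and 80.9 after 1 h, 778 and 762 after 6 h and 453 and 460 after 10 h. The KCl samples had 66.7 and 104, then 217 and 198, then 293 and 272. The samples of 6 and 10 h of either stimulus all lay above every control, whereas those of 1 h overlapped controls. Sema3e rose 8.56-fold with BDNF at 6 h (log2 difference 3.10, SE 0.14, limma adjusted p = 2.8e-13) and 5.08-fold at 10 h. KCl gave 1.21 at 6 h (limma adjusted p = 1.3e-07) and 1.65 at 10 h. The direct comparison placed BDNF above KCl by 1.89 (SE 0.17, limma adjusted p = 7.9e-09) at 6 h and by 0.69 (limma adjusted p = 0.0025) at 10 h.

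Sema3a (chr5:13125414-13602565, plus strand), the ligand of neuropilin-1 that collapses growth cones, rose with the same timing but less. Controls held 374 to 436 normalised counts (median 419). BDNF samples held 356 and 385 at 1 h, 858 and 835 after 6 h and 839 and 751 after 10 h. KCl samples held 383 and 364, 624 and 597, and 548 and 537. All late samples of both stimuli were above the controls. The log2 difference was 1.03 (SE 0.07, limma adjusted p = 5.0e-10) with BDNF at 6 h and 0.93 at 10 h, against 0.56 and 0.39 with KCl, and BDNF exceeded KCl by 0.47 and 0.55 in the direct comparisons, both called. The lower values at 1 h (-0.16 with BDNF, -0.15 with KCl) passed the threshold at limma adjusted p = 0.095 and 0.094 and lost the call in most alternative settings.

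Sema3d (chr5:12383385-12588948, plus strand), another secreted ligand, went the other way with BDNF. Its controls held 31.9 to 50.3 normalised counts (median 41.7). With BDNF the samples had 45.6 and 47.3 at 1 h, 18 and 13.7 after 6 h and 20.3 and 22.7 after 10 h. Those with KCl had 50.6 and 47.0, 43.3 and 39.4, and 108 and 57.7. Late BDNF samples were all below the lowest control and both KCl samples of 10 h above the highest. It fell by 1.33 (SE 0.22, limma adjusted p = 7.7e-05) with BDNF at 6 h and by 0.90 at 10 h, and rose by 0.93 with KCl at 10 h (0.49, limma adjusted p = 0.154, without library A of that group). Direct comparison at 10 h put BDNF lower than KCl by 1.83 (log2 difference -1.83, limma adjusted p = 1.8e-05).

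Sema3c repeated that contrast of the stimuli on a smaller scale, with -0.45 and -0.51 for BDNF at 6 and 10 h against 0.35 and 0.68 for KCl, all called, and direct differences of -0.80 and -1.18, both called. Sema3f fell with BDNF at all times (-0.37, -0.89 and -0.71) and with KCl at 1 and 10 h (-0.33 and -0.41). Sema3b fell with BDNF at all times (-0.71, -0.64 and -0.94), and with KCl it was higher at 1 h (0.59) and lower at 6 and 10 h (-0.98 and -0.52).

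**Figure D3:**
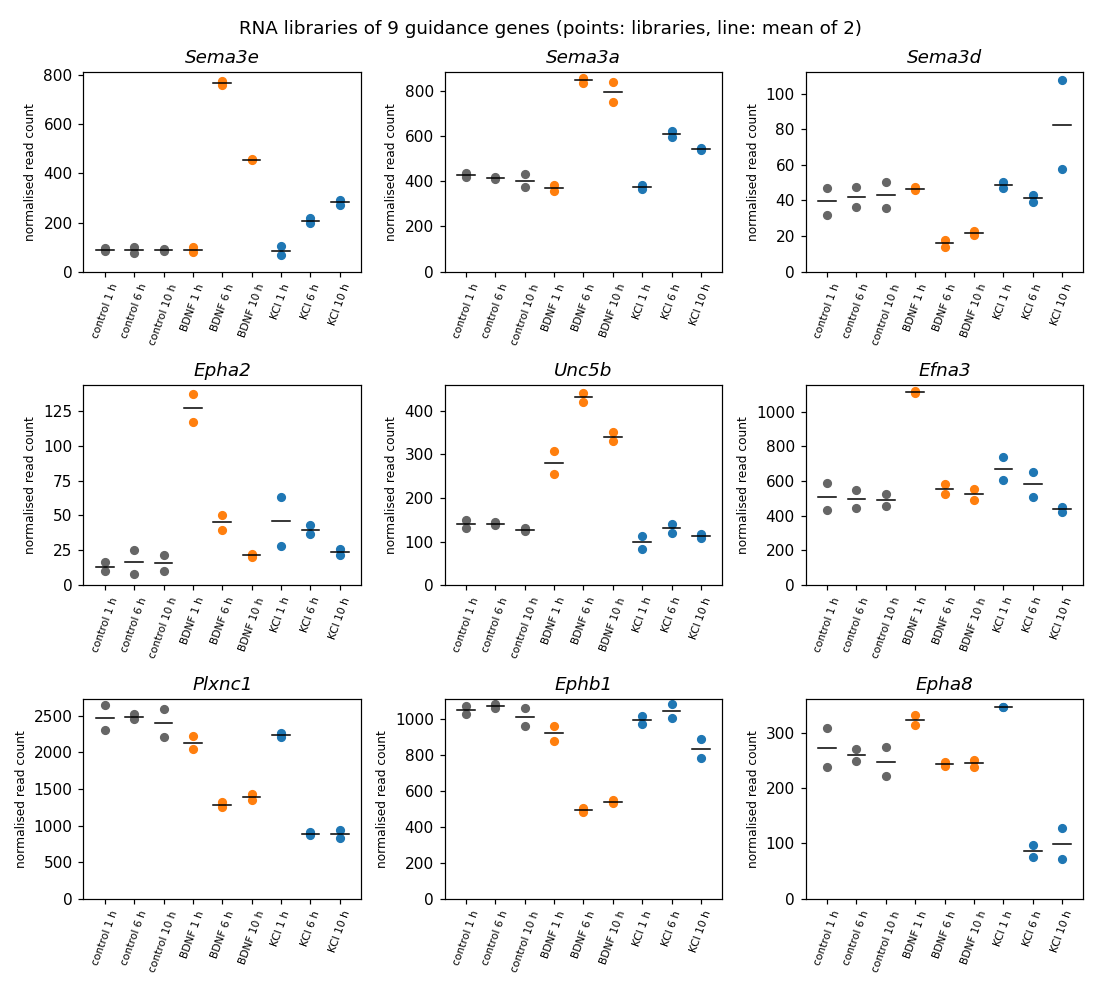
Normalised read counts (y axes, from 0) of 9 described members in controls, BDNF and KCl at 1, 6 and 10 h, with 1 point per RNA library and a line at the mean of the 2. Sema3e reaches 778 and 762 with BDNF at 6 h, while its 6 controls lie between 76.4 and 102.

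Sema3a, Sema3c, Sema3d and Sema3e all lie on chromosome 5, and open chromatin within them was read from ATAC peaks that overlap the gene body or the stretch between 1000 bp before and 100 bp after an annotated start. ATAC values are read counts per peak after LOESS scaling, tested with edgeR over 56383 peaks with the same groups and threshold. A peak called higher than controls is named gained, and one called lower closing. All adjusted p-values of peaks are from edgeR.

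In the intron of Sema3a a peak at chr5:13477649-13478102, 78.3 kb from the nearest annotated start, was gained in all 6 comparisons. Controls held 6.60 to 27.5 scaled counts (median 14.8). BDNF gave 89.4 and 90.4 at 1 h, 58.8 and 48.9 after 6 h and 60.1 and 54.1 after 10 h. KCl gave 50.4 and 36.9, 29.0 and 63.1, and 50.8 and 28.6. No stimulated sample overlapped the controls. The log2 difference was 2.55 (SE 0.27, edgeR adjusted p = 6.2e-14) with BDNF at 1 h, a time at which the RNA had not risen, 1.80 and 1.89 later, and 1.49, 1.42 and 1.37 with KCl.

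Within Sema3e the peak at chr5:14088170-14088363, 63.0 kb downstream of the gene's start, was gained with BDNF at all 3 times and called at no time of KCl. Its controls held 1.02 to 9.75 scaled counts (median 6.00), BDNF samples 18.6 and 16.3, 11.5 and 18.3, and 23.6 and 25.1, and KCl samples 6.8 and 1.2, 4.3 and 10.7, and 4.8 and 8.5. BDNF samples all exceeded the highest control, and KCl samples lay mostly among controls. Differences were 1.67, 1.47 and 2.15 with BDNF (edgeR adjusted p = 0.013, 0.053 and 0.0019) and -0.54, 0.17 and 0.30 with KCl, none of the last called. BDNF and KCl were not set against each other directly at peaks.

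Sema3d carried an intronic peak at chr5:12503343-12503622 that was gained in all 6 comparisons, although its RNA fell with BDNF. Controls held 3.11 to 11.7 scaled counts (median 9.67), BDNF samples 28.3 and 28.2, 37.6 and 35.0, and 25.6 and 23.8, and KCl samples 34.4 and 12.3, 24.3 and 35.6, and 23.6 and 32.7. Every stimulated sample was above every control. Differences ran from 1.45 (KCl, 1 h) to 2.13 (SE 0.37, edgeR adjusted p = 3.6e-06; BDNF, 6 h).

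A peak in Sema3c (chr5:17692071-17692329), chosen after its values were seen, held 2.09 to 12.0 in controls, 31.7 and 26.0, 57.5 and 35.0, and 36.5 and 27.2 with BDNF, and was gained by 2.04, 2.71 and 2.17 at 1, 6 and 10 h of BDNF and by 1.61 with KCl at 6 h. Sema3c RNA fell with BDNF at all 3 times. Promoter peaks of these genes moved less. That of Sema3d was gained in 4 comparisons by 0.41 to 0.60, that of Sema3c by 0.56 with KCl at 1 h, and those of Sema3a and Sema3e were not called in any of the 6.

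Sema3a, Sema3e and Sema3d are the 3 class 3 semaphorin genes with the largest RNA changes, and the central 200 bases of 1 peak of each, the called peak of largest change, are printed. They are plus-strand mm10 sequence, 5′ to 3′, in lower case, with capitals marking matches to the AP-1 motif (TGANTCA, either strand, bound by Fos and Jun proteins) in Sema3a and Sema3d, and a match to an EGR core motif (GTGGGCG, either strand, a site of the inducible EGR factors) in Sema3e.
Sema3a, chr5:13477776-13477975: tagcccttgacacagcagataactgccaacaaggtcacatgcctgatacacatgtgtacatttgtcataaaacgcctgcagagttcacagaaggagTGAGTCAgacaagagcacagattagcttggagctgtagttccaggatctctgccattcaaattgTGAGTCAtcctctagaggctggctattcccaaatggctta
Sema3e, chr5:14088167-14088366: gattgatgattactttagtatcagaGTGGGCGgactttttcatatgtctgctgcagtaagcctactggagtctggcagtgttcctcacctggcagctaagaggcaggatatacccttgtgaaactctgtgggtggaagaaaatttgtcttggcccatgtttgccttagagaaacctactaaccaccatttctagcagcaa
Sema3d, chr5:12503383-12503582: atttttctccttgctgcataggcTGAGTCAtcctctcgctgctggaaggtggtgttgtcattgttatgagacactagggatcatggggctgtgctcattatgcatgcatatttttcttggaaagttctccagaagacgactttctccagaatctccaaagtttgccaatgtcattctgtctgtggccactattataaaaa
The Sema3a window held 2 AP-1 matches, the Sema3d window 1, and the Sema3e window 0 beside its 1 EGR core. Counting every peak gained with BDNF at 1, 6 or 10 h, an AP-1 match lay in the central 200 bases of 2 of 2 in Sema3a, 1 of 2 in Sema3d and 3 of 4 in Sema3e. The printed Sema3e peak is the exception among those 4. A match is a description of these letters and not a shown binding site. Among all 56383 tested peaks 12.979% held an AP-1 match and 3.474% an EGR core in the central 200 bases.

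**Figure D4:**
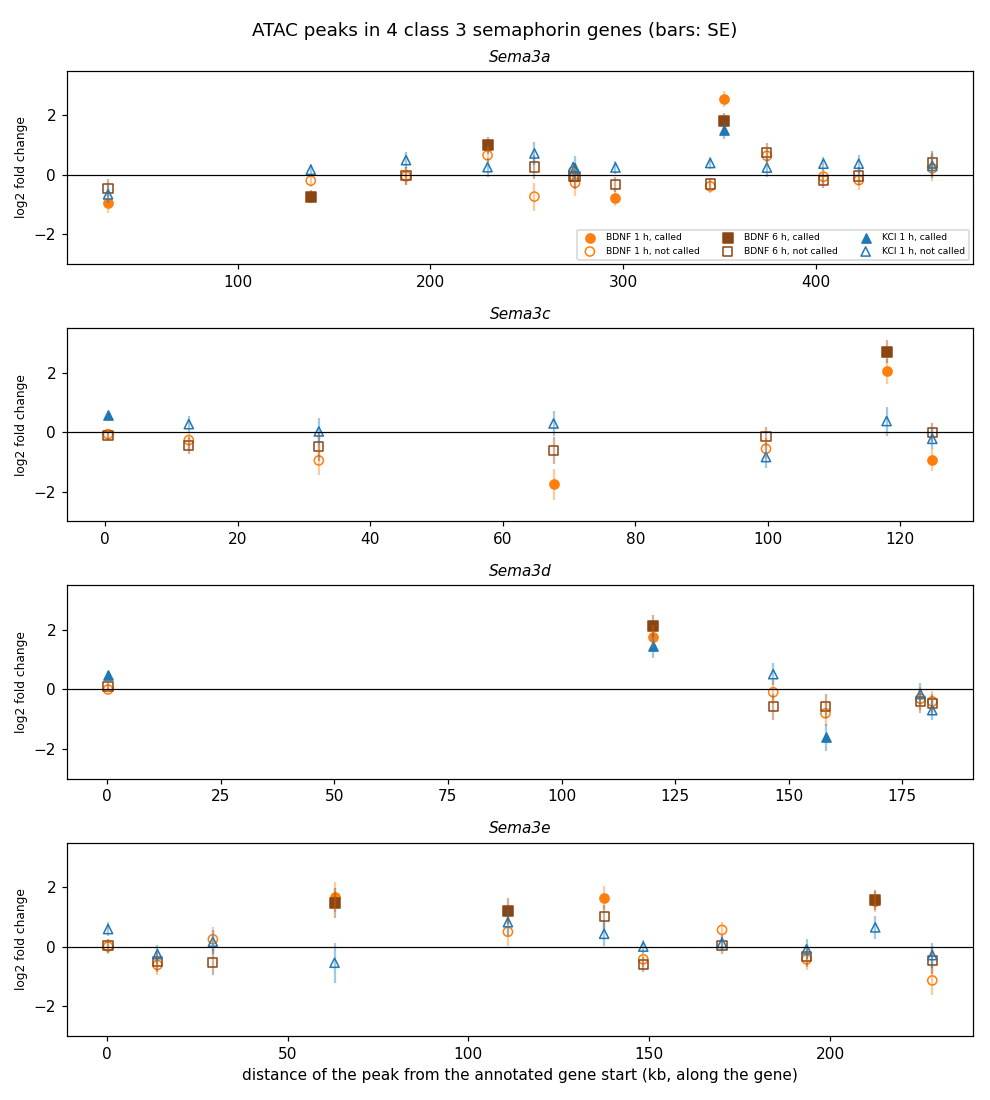
Log2 difference from controls (y axes, bars are SE) of the ATAC peaks in 4 class 3 semaphorin genes against their distance from the annotated gene start (kb, x axes), for BDNF at 1 and 6 h and KCl at 1 h, filled where called. In the Sema3a panel the peak with 2.55 for BDNF at 1 h is the highest, and most peaks of the 4 genes lie near 0.

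Transmembrane and GPI-anchored semaphorins were mixed. Of 13, 3 rose and 2 fell with BDNF at 1 h, 2 rose and 5 fell at 6 h, and with KCl 7 rose and 5 fell at 6 h. Sema4b (chr7:80186841-80226527), a transmembrane ligand, split the stimuli at 1 h. It held 606 to 640 normalised counts in controls (median 623), 876 and 898 with BDNF at 1 h and 364 and 335 with KCl at 1 h, so the 3 groups did not overlap. It rose by 0.51 with BDNF (SE 0.06, limma adjusted p = 2.0e-06) and fell by 0.83 with KCl (limma adjusted p = 6.7e-10), and the direct difference was 1.34 (SE 0.08, limma adjusted p = 1.6e-11). At 6 and 10 h Sema4b lay at 675 and 672 and at 647 and 658 with BDNF, and at 701 and 764 and at 702 and 645 with KCl.

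Sema7a (chr9:57940112-57962865), a GPI-anchored semaphorin that binds Plexin-C1, rose with both stimuli. Controls held 776 to 873 normalised counts (median 829). BDNF samples held 1087 and 1106, 1079 and 1117, and 946 and 983, and KCl samples 848 and 839, 1474 and 991, and 1731 and 1392. Samples of KCl at 1 h sat within the controls, and all others were above them. Called differences were 0.40 and 0.41 with BDNF at 1 and 6 h and 0.54 and 0.91 with KCl at 6 and 10 h. Sema4c rose at 1 h with either stimulus (0.82 and 0.70) and fell with BDNF at 6 h (-0.47), Sema4a fell with BDNF at 6 h (-0.57) and rose with KCl (0.58), with a direct difference of -1.16 (limma adjusted p = 1.7e-08), and Sema6c fell with BDNF at 1 h (-0.73) and 6 h (-0.70). Sema4g fell late with both stimuli (-0.60 and -0.64 at 6 h), Sema5b likewise (-0.21 and -0.20), and Sema4d fell with KCl at all times (-0.62, -0.26 and -0.34) but was called at no time of BDNF. Sema5a was called in opposite directions at 6 h, with 0.22 for BDNF against -0.46 for KCl. Sema6a rose with KCl at 6 and 10 h (0.60 and 0.59), Sema6b with KCl at 6 h (0.34) and Sema6d with KCl at 1 h (0.27), and Sema4f fell with BDNF at 1 h (-0.35) and with KCl at 6 h (-0.39).

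Plexins, the signalling receptors of semaphorins, mostly fell late with BDNF. Of 8 plexins 1 rose and 6 fell with BDNF at 6 h, and 0 rose and 6 fell at 10 h. With KCl 2 rose (Plxna1 by 0.13 and Plxnb2 by 0.29) and 4 fell at 6 h, and 0 rose, 3 fell and 5 were not called at 10 h. Plxnc1 (chr10:94790866-94944835, minus strand), the Sema7a receptor, held 2213 to 2642 normalised counts in controls (median 2489). It had 2041 and 2230 with BDNF at 1 h, 1258 and 1317 after 6 h and 1353 and 1436 after 10 h. With KCl it had 2214 and 2264, 864 and 913, and 942 and 829. All samples of 6 and 10 h were below the controls, those of KCl lowest. Plxnc1 fell by 0.93 (SE 0.07) with BDNF and by 1.46 (SE 0.07, limma adjusted p = 3.2e-13) with KCl at 6 h, and the direct difference of 0.53 (limma adjusted p = 2.6e-05) was called. Plxnc1 and its ligand Sema7a thus had opposite signs at 6 h under both stimuli.

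Plxna3 (chrX:74329066-74344689), a co-receptor for class 3 semaphorins, held 2760 to 3346 in controls (median 3055), 2439 and 2444, 2023 and 1721, and 2224 and 2032 with BDNF, and 2188 and 2363, 2446 and 2005, and 2880 and 2419 with KCl. It fell in all 6 comparisons, by 0.31, 0.69 and 0.51 with BDNF and by 0.41, 0.45 and 0.19 with KCl, the last of which lost its call in 7 of 17 settings. Plxnd1, the Sema3e receptor, fell by 0.43 and 0.46 with BDNF at 6 and 10 h and by 0.25 with KCl at 6 h. Plxna1, Plxnb1 and Plxnb2 fell with BDNF at 6 h (-0.36, -0.62 and -0.33) and 10 h (-0.59, -0.57 and -0.35). Of the exon bases of Plxna1 10.7% are shared with another annotated gene, so reads there are uncertain. Of the other plexins, Plxna4 rose with BDNF at 6 h (0.42) and Plxna2 fell with KCl at 6 and 10 h (-0.54 and -0.53).

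Neuropilins bind class 3 semaphorins, and both changed direction with time under KCl. Nrp1 (chr8:128358604-128503363) held 1990 to 2350 normalised counts in controls (median 2217), 1192 and 1394 with KCl at 1 h, 2773 and 2742 after 6 h and 2261 and 2445 after 10 h. With BDNF it held 2027 and 2049, 1921 and 2007, and 1814 and 1965. KCl samples of 1 h were below and those of 6 h above every control. Nrp1 fell by 0.77 (SE 0.07, limma adjusted p = 9.1e-09) with KCl at 1 h and rose by 0.33 (limma adjusted p = 0.00034) at 6 h. Nrp2 (chr1:62703285-62818695) held 1647 to 1847 in controls (median 1803), 1470 and 1583, 1152 and 1204, and 1343 and 1399 with BDNF, and 2029 and 2164, 1610 and 1473, and 1386 and 1304 with KCl. It fell by 0.22, 0.59 and 0.37 with BDNF, rose by 0.24 with KCl at 1 h and fell by 0.20 and 0.40 later.

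An intronic peak of Plxnc1 (chr10:94794775-94795178) was gained with BDNF at 1 h (1.70, SE 0.33, edgeR adjusted p = 1.6e-05) and 6 h (1.47), and not called with KCl (0.89, 0.86 and 0.71). Controls held 5.82 to 19.5 scaled counts (median 14.5), and BDNF samples 44.1 and 49.0, 38.8 and 40.6, and 17.8 and 25.3. The RNA of the same gene fell. Its central 200 bases hold 1 AP-1 match, in capitals below.
Plxnc1, chr10:94794877-94795076: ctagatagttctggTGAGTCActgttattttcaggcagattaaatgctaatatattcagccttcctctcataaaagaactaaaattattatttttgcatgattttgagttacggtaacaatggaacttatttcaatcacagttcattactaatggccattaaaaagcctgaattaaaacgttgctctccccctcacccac

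Eph receptors, the contact-dependent receptor kinases, fell more often than they rose with BDNF. Of 13, 3 rose and 6 fell at 1 h, 2 rose and 9 fell at 6 h and 1 rose and 4 fell at 10 h. With KCl 5 rose and 3 fell at 1 h, 4 and 4 after 6 h and 5 and 5 after 10 h. Ephrins, their ligands, rose early, 4 of 8 with BDNF and 5 of 8 with KCl at 1 h, with 1 and 2 falling. At 1 h 21.3% of all tested genes rose and 19.0% fell with BDNF, and 26.5% and 28.2% with KCl.

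Epha2 (chr4:141301240-141329384, plus strand), a receptor that is weakly expressed in these cultures, gave the largest change of any member at 1 h. Its controls held 7.83 to 24.9 normalised counts (median 13.4). BDNF samples held 137 and 117 at 1 h, 39.6 and 50.3 after 6 h and 20.3 and 22.7 after 10 h. KCl samples held 28.4 and 63.1, 36.4 and 42.8, and 25.7 and 21.8. Samples of 1 and 6 h were all above the controls, and those of 10 h overlapped them apart from 1 KCl sample. Epha2 rose 8.54-fold with BDNF at 1 h (log2 difference 3.09, SE 0.35, limma adjusted p = 6.7e-07) and by 1.61 at 6 h, and by 1.54 and 1.44 with KCl. The direct difference at 1 h was 1.55 (SE 0.42, limma adjusted p = 0.0067). At 10 h 0.59 with BDNF was not called, and 0.72 with KCl (limma adjusted p = 0.089) lost its call in 10 of 17 settings.

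The promoter of Epha2 is the only member promoter of those read here that holds a full CRE (TGACGTCA, the site of CREB family factors). Its 300 bases from RefSeq (GRCm38, plus strand) are shown with the CRE in capitals. The match describes letters only, and a part of it in the change of Epha2 at 1 h was not tested.
Epha2, chr4:141300971-141301270: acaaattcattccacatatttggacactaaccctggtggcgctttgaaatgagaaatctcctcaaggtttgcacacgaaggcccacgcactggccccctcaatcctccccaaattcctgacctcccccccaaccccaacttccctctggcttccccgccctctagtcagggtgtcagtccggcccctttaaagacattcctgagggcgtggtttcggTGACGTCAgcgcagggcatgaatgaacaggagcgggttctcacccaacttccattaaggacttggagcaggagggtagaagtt
Of 71 promoters of 55 members in the RefSeq table, 1 (1.408%) held a CRE, 3 (4.225%) AP-1 and 9 (12.676%) the EGR core, against 1.79%, 7.808% and 7.966% of all 32851 promoters. The Epha2 promoter peak (chr4:141301131-141301655) held 14.6 to 26.1 scaled counts in controls (median 19.5), 26.7 and 40.5 with BDNF and 37.6 and 36.2 with KCl at 1 h. It was gained with KCl at 1 h (0.91, SE 0.32, edgeR adjusted p = 0.074), a call lost in 8 of 14 settings, and with BDNF at 1 h the difference of 0.79 had an edgeR adjusted p of 0.101.

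Epha8 (chr4:136929419-136956816, minus strand), an Eph receptor, fell with KCl at the later times. Controls held 221 to 308 normalised counts (median 259), BDNF samples 331 and 313, 247 and 239, and 237 and 251, and KCl samples 347 and 345, 96.4 and 75.2, and 127 and 70.8. Late KCl samples were all below the lowest control, and late BDNF samples sat among controls. Epha8 fell by 1.59 (SE 0.16, limma adjusted p = 3.5e-08) and 1.43 with KCl at 6 and 10 h, and BDNF exceeded KCl by 1.5 and 1.35 at those times, both called.

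Ephb1 (chr9:101922128-102354693, minus strand), a receptor for ephrin-Bs, fell with BDNF instead. It held 960 to 1083 in controls (median 1062), 879 and 962, 485 and 503, and 532 and 548 with BDNF, and 1016 and 972, 1081 and 1005, and 782 and 888 with KCl. BDNF samples of 6 and 10 h were below every control, and KCl samples of 6 h overlapped controls. It fell by 1.08 (SE 0.07, limma adjusted p = 8.2e-11) with BDNF at 6 h and by 0.95 at 10 h, with KCl at -0.00 (limma adjusted p = 0.98) and -0.32 (called), and the direct differences of -1.08 and -0.62 were both called. Epha10, a kinase-inactive receptor, also differed directly, with differences from controls of -0.84 and -1.0 for BDNF, both called, and of 0.67 and 0.66 under KCl, also called, at the 2 later times. Epha7 fell by 0.85 with BDNF at 1 h. Epha4, a receptor for ephrins of both classes, fell with BDNF at all times (-0.50, -0.46 and -0.29), Ephb2 fell with BDNF at 6 and 10 h (-0.74 and -0.73) and with KCl at those times (-0.38 and -0.45) after a rise of 0.39 at 1 h of KCl, and Ephb3 rose with BDNF at all times (0.73, 0.20 and 0.21). At 1 h of BDNF Epha3 (-0.27), Ephb4 (-0.38) and Ephb6 (-0.54) fell and Epha6 (0.50) rose.

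Efna3 (chr3:89313899-89322965, minus strand), a GPI-anchored ephrin, rose at 1 h. It held 434 to 587 normalised counts in controls (median 492), 1116 and 1110 with BDNF at 1 h, 527 and 586 after 6 h and 554 and 493 after 10 h. The KCl samples held 737 and 606, 652 and 511, and 452 and 420. BDNF samples of 1 h were the highest of all. Efna3 rose by 1.16 (SE 0.11, limma adjusted p = 7.7e-08) with BDNF at 1 h and by 0.43 with KCl (0.29, limma adjusted p = 0.134, without KCl library A of 1 h), and the direct difference was 0.73 (limma adjusted p = 0.00027). Of its exon bases 14.1% are shared with other annotated genes, so reads there are uncertain.

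Efna1 (chr3:89271733-89281142), the member with the lowest mean count, had 9.33 to 12.7 in controls (median 10.9), 18.2 and 22.9, 8.11 and 8.23, and 6.78 and 9.84 with BDNF, and 6.17 and 6.42, 6.88 and 12.7, and 6.11 and 5.45 with KCl. The BDNF samples of 1 h were above every control. Its differences at 1 h were 0.86 and -0.70, the first at 0.70 (limma adjusted p = 0.242) without BDNF library B of 1 h. Efnb2, a transmembrane ephrin, rose in all 6 comparisons, among others by 0.83 with KCl and 0.32 with BDNF at 1 h, and Efnb3 fell with both stimuli at 6 h (-0.49 and -0.45) and 10 h (-0.42 and -0.51). Efnb1 rose at 1 h only, by 0.33 with BDNF and 0.66 with KCl. Efna4 fell with BDNF at all times (-0.84, -0.60 and -0.50) and with KCl at 1 h (-0.83), and Efna2 and Efna5 rose with KCl at 6 h (0.40 and 0.41). Of the exon bases of Efna4 10.5% are shared with other annotated genes.

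A peak in Epha5 (chr5:84307986-84308290), chosen after its values were seen, held 1.03 to 7.34 scaled counts in controls and 39.6 and 46.0, 31.4 and 26.4, and 40.8 and 29.5 with BDNF. Its differences were 3.52, 2.95 and 3.22 with BDNF, and 1.37 (not called), 1.73 and 1.88 with KCl. Epha5 RNA differed by -0.16, -0.39 (called) and -0.16 with BDNF and by 0.11, 0.21 and 0.42 with KCl, the last 2 called.

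Slits and Robos, the secreted repellents and their receptors, had no member called at a log2 difference of 1 or more. Slit1 (chr19:41600257-41743665) had 1126 to 1306 in controls (median 1260). KCl samples had 1259 and 1350, 1810 and 1325, and 1563 and 1496, and BDNF samples 1133 and 1249, 1046 and 1124, and 1081 and 1067. With KCl at 6 and 10 h Slit1 rose by 0.33 (0.10, limma adjusted p = 0.323, without KCl library A of 6 h) and 0.31, and its BDNF differences of -0.19 and -0.20 at those times lost their calls in 9 and 8 of 17 settings. Slit3 (chr11:35121224-35708507) had 104 to 151 in controls (median 137), 132 and 131, 204 and 231, and 190 and 171 with BDNF, and 191 and 257, 154 and 146, and 167 and 152 with KCl. All stimulated samples but those of BDNF at 1 h and 1 of KCl at 6 h (146) lay above the controls. At 6 h of BDNF and 1 h of KCl it rose by 0.70 (SE 0.14, limma adjusted p = 0.00038) and 0.73 (SE 0.14, limma adjusted p = 0.00013). Slit2 was called in none of the 6 comparisons.

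Robo1 (chr16:72308306-73046095) held 2095 to 2406 in controls (median 2227), 2510 and 2560 after 6 h of BDNF and 3225 and 2970 after 10 h. After 1 h of BDNF it had 2070 and 2194. With KCl it had 2373 and 2382, 2000 and 1570, and 2388 and 2135, of which only the pair of 6 h fell below the controls. It rose by 0.47 (SE 0.08, limma adjusted p = 6.1e-05) with BDNF at 10 h and fell by 0.33 with KCl at 6 h (-0.16, limma adjusted p = 0.105, without KCl library B of 6 h). Robo2 (chr16:73891839-74411825) had 2007 to 2366 in controls (median 2116), 2625 and 2212, 3476 and 2654, and 3636 and 3376 with KCl, and 2153 and 2222, 2483 and 2286, and 2605 and 2217 with BDNF. All KCl samples of 6 and 10 h exceeded the controls, and it rose by 0.50 and 0.70 there. Its BDNF differences of 0.02, 0.15 and 0.16 were not called.

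Robo1 held an intronic peak at chr16:72811493-72811853, 148 kb from the nearest annotated start. Its controls held 6.22 to 15.2 scaled counts (median 13.5) and BDNF samples of 1 h 60.2 and 41.6. It was gained by 2.1 (SE 0.34, edgeR adjusted p = 3.3e-07) with BDNF at 1 h and by 1.17 and 1.31 with KCl at 1 and 6 h. Its central 200 bases hold 1 AP-1 match, in capitals.
Robo1, chr16:72811574-72811773: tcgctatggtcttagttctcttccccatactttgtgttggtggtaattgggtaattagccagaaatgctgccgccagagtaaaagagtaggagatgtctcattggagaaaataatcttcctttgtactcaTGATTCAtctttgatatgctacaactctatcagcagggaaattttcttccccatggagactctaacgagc
The promoter peak of Robo1 (chr16:72307519-72308055) went the other way at 1 h of BDNF, from 38 to 59.1 scaled counts in controls (median 42.4) to 22.1 and 16.4, a called difference of -1.20 (SE 0.32, edgeR adjusted p = 0.0026).

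Netrin-G genes encode GPI-anchored synaptic ligands. Ntng1 (chr3:109780040-110144011, minus strand) held 132 to 196 in controls (median 170), 184 and 148, 243 and 282, and 289 and 270 with BDNF, and 259 and 251, 250 and 240, and 352 and 278 with KCl. All samples but those of BDNF at 1 h lay above the controls. Ntng1 rose by 0.65 and 0.74 with BDNF at 6 and 10 h and by 0.61, 0.55 and 0.90 (SE 0.13, limma adjusted p = 8.2e-06) with KCl. Ntng2 (chr2:29194541-29253005, minus strand), with 931 to 1338 in controls (median 1085), had 1283 and 1260, 1329 and 1391, and 1033 and 985 with BDNF and 1152 and 1116, 1383 and 1176, and 2075 and 1407 with KCl. It was called only with KCl at 10 h (0.62, limma adjusted p = 0.0011), and 14.0% of its exon bases are shared with other annotated genes. Ntn1 and Ntn4 were called in none of the 6 comparisons, and Ntn1 ranged widely in controls, from 714 to 2059.

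An intronic peak of Ntng1 (chr3:110000372-110000830) held 2.39 to 19.4 scaled counts in controls (median 12.4), and 45.7 and 53.0 with BDNF and 37.7 and 25.0 with KCl at 1 h. It was gained with BDNF at all times (2.19, 1.31 and 1.24) and with KCl at 1 h (1.51), where the RNA rose with KCl but not with BDNF. The promoter peak of Ntng2 (chr2:29252293-29253812), with 69.6 to 97.9 in controls (median 82.8), had 134 and 116 with BDNF at 1 h (0.58, SE 0.18, edgeR adjusted p = 0.015), a call lost without BDNF library A of 1 h. The 2 windows are printed to set a gained intronic peak with an AP-1 match, in capitals, beside a gained promoter peak without one.
Ntng1, chr3:110000502-110000701: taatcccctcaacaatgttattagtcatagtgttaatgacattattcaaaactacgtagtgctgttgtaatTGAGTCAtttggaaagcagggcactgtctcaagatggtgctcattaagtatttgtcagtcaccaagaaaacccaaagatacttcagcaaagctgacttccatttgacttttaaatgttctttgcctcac
Ntng2, chr2:29252953-29253152: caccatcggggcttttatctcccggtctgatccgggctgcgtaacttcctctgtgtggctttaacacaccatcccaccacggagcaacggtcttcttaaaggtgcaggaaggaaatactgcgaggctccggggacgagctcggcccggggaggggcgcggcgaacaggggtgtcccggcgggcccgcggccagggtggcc

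The netrin receptors split by gene. Unc5b (chr10:60762593-60831581, minus strand), a repulsive netrin receptor, rose with BDNF alone. Controls held 125 to 150 normalised counts (median 134), BDNF samples 255 and 307, 440 and 421, and 330 and 352, and KCl samples 82.7 and 113, 141 and 120, and 117 and 109. Each BDNF sample was above, and none of the KCl samples was above, the highest control. Unc5b rose by 1.04, 1.66 (SE 0.12, limma adjusted p = 5.1e-10) and 1.32 at 1, 6 and 10 h of BDNF. With KCl it was lower at 1 h (-0.48, and -0.26 with limma adjusted p = 0.154 without KCl library A of 1 h) and at 10 h (-0.26, a call lost in 8 of 17 settings). The direct differences were 1.52, 1.72 and 1.58, all called. Unc5c had the reverse direct differences, -1.25 at both 6 and 10 h, falling with BDNF (-0.89 and -0.66) and rising with KCl (0.36 and 0.59).

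Dcc, the attractive netrin receptor, held 253 to 380 in controls (median 359), 347 and 381, 266 and 269, and 309 and 274 with BDNF, and 427 and 478, 204 and 162, and 455 and 377 with KCl. It rose by 0.40 with KCl at 1 h and fell by 0.91 (SE 0.13, limma adjusted p = 3.4e-06) at 6 h, when both samples lay below every control, and at 10 h the higher value of 0.28 lost its call in 5 of 17 settings. Unc5a fell with BDNF at all times (-0.42, -0.35 and -0.44), and Unc5d fell with KCl at 6 and 10 h (-0.70 and -0.43).

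Set directly against KCl, BDNF gave lower levels for more members. At 1 h 9 members were higher and 19 lower with BDNF, against 24.6% and 18.2% of all genes. At 6 h 15 were higher and 27 lower, against 29.6% and 27.8%, and at 10 h 10 and 27, against 23.1% and 21.8%. Among receptors 4 were higher and 9 lower at 1 h, 9 and 17 after 6 h and 7 and 16 after 10 h.

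Most change within a stimulus came between 1 and 6 h. From 1 to 6 h of BDNF 9 members rose and 26 fell, against 15.8% and 17.7% of all genes. From 6 to 10 h of BDNF 0 rose and 1 fell, against 0.0740% and 0.142% of all genes (12 and 23 genes). The 1 was Sema3e (-0.75, SE 0.17, limma adjusted p = 0.088), and the call was lost when any 1 of the 4 libraries (A or B of either time) was left out. From 1 to 6 h of KCl 17 rose and 22 fell, against 30.9% and 28.7%, and from 6 to 10 h 13 rose and 8 fell, against 12.9% and 9.66%, a count of 21 calls that fell to 4 without KCl library A of 10 h and to 9 without KCl library B of 6 h. Between the control times 0 members and 0 genes were called by limma, 0% in either direction for 6 h and 10 h controls against 1 h controls, with 0 and 1 members and 164 and 181 genes at an unadjusted p below 0.05. edgeR and DESeq2 on the recovered reads also called 0 members.

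Other guidance genes, a list of 25 with adhesion molecules and further ligands and receptors, had 3 called higher and 8 lower at 6 h of BDNF, and 7 higher and 9 lower at 6 h of KCl, with medians of -0.08 and -0.01. Cntn2, an adhesion molecule of axons, fell by 1.24 and 1.47 with KCl at 6 and 10 h, and Draxin, a secreted repellent that binds Dcc, fell by 0.97 with BDNF and by 0.82 with KCl at 6 h. Of 63 genes of downstream signalling, 19 rose and 11 fell with BDNF at 1 h and 11 rose and 21 fell at 6 h, and with KCl 26 rose and 11 fell at 1 h and 21 rose and 21 fell at 6 h. For both lists the shares of all tested genes called higher and lower with BDNF were 21.3% and 19.0% at 1 h and 22.1% and 21.1% at 6 h. With KCl they were 26.5% and 28.2% at 1 h and 33.4% and 33.1% at 6 h. Mical2, of the family of semaphorin signalling oxidases, rose by 1.43 with BDNF and fell by 0.71 with KCl at 6 h.

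In chromatin, 397 peaks overlapped 64 members, 79 at promoters, 21 in exons and 297 in introns. Efnb3 had none. Of the 391 tested, 38 were gained and 15 closed with BDNF at 1 h, against 12.5% and 4.78% of all peaks. At 6 h 26 were gained and 6 closed (8.88% and 1.75% of all peaks), and at 10 h 19 and 14 (7.46% and 1.90%). With KCl 24 were gained and 7 closed at 1 h (5.29% and 3.05%), 15 and 6 at 6 h (5.44% and 2.06%), and 18 and 3 at 10 h (5.91% and 1.96%). Each count moved with single libraries. Without library A or B of the stimulated group the called peaks went from 53 to 30 or 32, from 32 to 18 or 18 and from 33 to 15 or 21 with BDNF at 1, 6 and 10 h, and from 31 to 5 or 5, from 21 to 12 or 8 and from 21 to 7 or 12 with KCl. At 10 h of KCl the 21 became 44 with TMM scaling. BDNF gained 44 peaks of 20 members at any time, and KCl 44 peaks of 24 members, with 19 peaks gained with both. Over all tested peaks, gains at any time were not counted for each stimulus or for both. These 3 peak counts therefore cannot be read as particular to members. With neither stimulus gaining them at any time, 322 of 391 member peaks remained, beside 45684 of all 56383 tested peaks.

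Among promoter peaks of other described genes, those of Robo2 (0.87) and Slit3 (0.68) were gained with KCl at 1 h and 1 of Ntng1 closed with BDNF at 10 h (-1.31). The strongest called peaks of the remaining described genes were close to the threshold and lost their calls in 2 to 11 of 14 settings, namely those of Robo2 (-1.61, BDNF at 6 h), Slit1 (-1.78, KCl at 1 h), Slit3 (-1.37, KCl at 6 h), Ephb1 (-1.63, KCl at 6 h), Unc5b (-0.90, KCl at 6 h), Nrp1 (1.41, KCl at 10 h), Sema4b (-0.61, BDNF at 10 h) and Dcc (-1.46, BDNF at 10 h).

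AP-1 matches were frequent in the gained peaks of members. Of 38 gained with BDNF at 1 h, 24 (63.158%) held one in the central 200 bases, of 26 at 6 h 20 (76.923%) and of 19 at 10 h 14 (73.684%). With KCl it was 8 of 24 (33.333%), 9 of 15 (60%) and 13 of 18 (72.222%). Among all gained peaks of the series the BDNF shares were 59.73%, 68.584% and 67.412% and the KCl shares 35.879%, 54.925% and 56.946%. Member peaks that were never gained held AP-1 in 18 of 322 (5.59%), against 5.586% of all never gained peaks. Of the closing member peaks 1 of 7 with KCl at 1 h held AP-1, and 0 in each of the other 5 comparisons. In the central 200 bases CRE was in 0 of 391 member peaks (0.708% of all) and the EGR core in 13 (3.325%). The CRE of the Epha2 promoter lies within its promoter peak but outside that window, so it is not counted here.

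**Figure D5:**
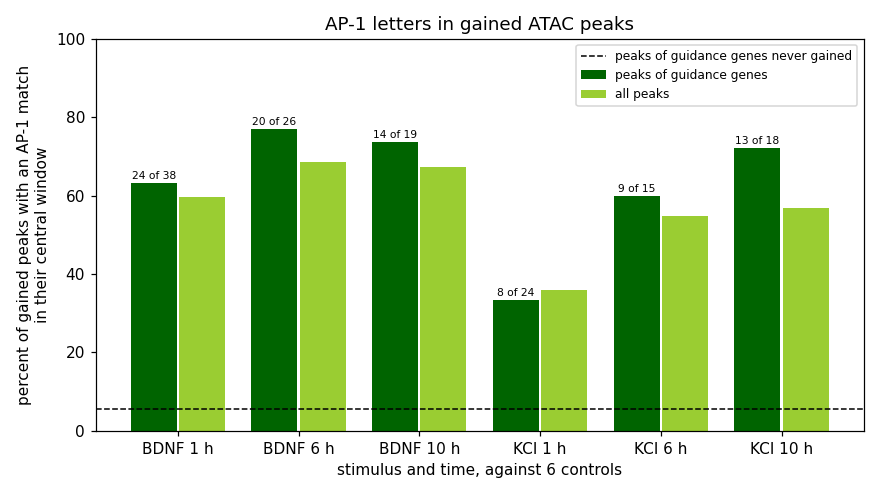
Share of peaks with an AP-1 match (TGANTCA) in the central 200 bases (percent, y axis), for gained peaks of members and all gained peaks in the 6 comparisons, with a dashed line at the share in member peaks never gained (5.59%). The KCl 1 h bars are the lowest, at 33.333% for members and 35.879% for all gained peaks.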

How the data were processed

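RNA-seq and ATAC-seq of cultured mouse cortical neurons were each measured in 18 samples, 2 in each of 9 groups taken from the sample labels. The study calls them biological replicates, tissue of all embryos was pooled before culture, and the sources used here do not say whether the samples of a group came from separate dissections, so p-values measure only the spread between these samples, which may be technical. The submitters' processing notes name Trimmomatic, Bowtie2, MACS2, DiffBind, TopHat2 and DESeq2, with the build mm10. For RNA the authors mapped reads with TopHat2, and the program that counted them, like its use of strand, is not given in the sources used here.

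In the RNA table the authors deposited a normalised signal, made by dividing each sample's gene reads by its DESeq2 size factor. Whole reads were recovered from them within 0.01 for 100% of values, and these gave the depth, 8.51 to 36.7 M reads. The deposited ATAC values are counts of reads in peaks of mm10, raw whole numbers with a lowest value of 1 although the table is named as normalised, with depths of 1.24 to 6.24 M reads. Counting error therefore adds to the replicate spread for weak genes and peaks. The authors' tables of fold changes and p-values were not used. The number of unused sample columns was 0.

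Genes and peaks with a mean of at least 10 over the 18 samples were tested. RNA was fitted with limma 3.58.1 on log2(value + 1) (trend and robust options, 7 levels with the 6 controls as 1, and 9 levels for the control times). ATAC was fitted with edgeR 4.0.16 (quasi-likelihood, robust, LOESS offsets), and the SE is the log2 difference divided by the square root of F. As a check, edgeR with TMM on the recovered reads called 6430, 7142 and 6684 of 16209 genes with BDNF at 1, 6 and 10 h, and 8861, 10779 and 9170 with KCl. Scripts were tested on simulated data. R 4.3.3, DESeq2 1.42.0, Python 3.11.15, pandas 2.3.3 and samtools 1.23.1 were also used.

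Gene positions came from GENCODE M21 (GRCm38, the build of the peaks), promoters from RefSeq, and peak sequence from the GRCm38 genome. Members were assigned every peak over the gene body or its promoter window. All 65 members were counted or named, and described with each sample's value if called at an absolute log2 difference of at least 1 against controls, or, in a class with under 2 such genes, as the called members of largest change (up to 2 a class). The called peak of largest change of each was named, and promoter peaks. The members, the other gene lists and the marker lists were chosen with earlier results of these data known. Alternatives were another pseudocount, filter, scaling, tool, threshold, control set and peak window, the column letter as a block, and each library left out in turn.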

Additional observations from a re-analysis of the deposited data

Results flagged for a closer look

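In 3 of the 65 members, all of which were tested, 1 of the 6 controls lay far from the other 5 by Dixon's test. The test flags about 1 in 20 groups by chance, a rate that would give about this many. Dcc had 253 normalised counts in control library A of 1 h, the deepest RNA library, against 338 to 380 in the others. Efna4 had 142 in control library A of 10 h against 113 to 123.3, and Ephb2 had 1556 in the same library against 1705 to 1780.

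Several members were called in opposite directions at 2 times of the same stimulus, with the difference between the times itself called by limma. Between 1 and 6 h of BDNF the log2 difference was -1.33 for Epha6, 1.19 for Sema3a and -1.28 for Sema4c. From 1 to 6 h of KCl the receptors gave -1.31 for Dcc, 0.87 for Epha3, -0.41 for Epha4, -2.01 for Epha8, -0.78 for Ephb2, 1.10 for Nrp1 and -0.44 for Nrp2. The ligands gave -0.87 for Efnb3, 0.71 for Sema3a, -1.57 for Sema3b, 1.07 for Sema4b and -0.67 for Sema5a over the same times. From 6 to 10 h of KCl Dcc gave 1.18. The early values of Sema3a with either stimulus lost their calls in most other settings, and that of Epha8 with KCl in 4 of 17.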

How the results depend on the processing

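No described value changed direction in a setting if it was called in the main fit or in that setting. Values called in neither were not checked for direction. Of the described calls, 90 of 125 for RNA and 5 of 16 for peaks held in every setting run. RNA calls of members numbered 28 with BDNF at 1 h, and 18 (9 higher, 9 lower) with controls of the same time, 17 at an adjusted p below 0.01, and 17 to 30 with each library left out. BDNF at 10 h against 6 h gave 1 call, and 0 with no filter on low values, 0 at an adjusted p below 0.01 and 0 to 0 with each library left out. KCl at 10 h against 6 h gave 21 calls, 2 at an adjusted p below 0.01, and 4 to 21 with each library left out. Peak calls depended more on the setting. With BDNF at 1 h there were 53, and 22 at an adjusted p below 0.01, 6 in the promoter window and 30 to 56 with each library left out. At 6 h the 32 became 20 with limma, 13, 0 and 18 to 33 in the same order, and at 10 h the 33 became 9 with controls of the same time, 11, 5 and 15 to 35. With KCl at 1 h the 31 became 11 with limma, 14 with controls of the same time, 4 at an adjusted p below 0.01, 9 in the promoter window and 5 to 32 with each library left out. At 6 h the 21 became 32 with TMM scaling, 40 (20 higher, 20 lower) with limma, 7, 1 and 8 to 24, and at 10 h the 21 became 44 with TMM scaling, 43 with DESeq2 size factors, 11 with controls of the same time, 5, 2 and 7 to 25. The promoter window has 79 peaks and a library left out leaves 1 sample in that group, assumed to vary like the others. For the remaining settings the cause was not tested. The RNA column letters are not the replicate numbers of the labels. Deviations of same-lettered libraries correlated at -0.31 to 0.42 (median 0.065, over 0.1 in 13 of 36 pairs of groups). The letters do not tell whether libraries of different groups shared a preparation, and this was not tested. With the letter as a replicate block the RNA calls at 1, 6 and 10 h were 30, 46 and 39 for BDNF, then 38, 46 and 42 for KCl, each within 1.5 times the count without the block. No paired analysis was possible because the ATAC columns carry no replicate number.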
